A study of Rattus norvegicus with 22 samples.

Results

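The sirtuins are a family of NAD-dependent deacylases, and their transcripts were examined here in the liver of male Sprague–Dawley rats. The family list held 7 genes, Sirt1 to Sirt7. Probes were taken where the gene name given in the array annotation was one of these, whatever its case, and this found 6 of 26276 gene names, Sirt2 to Sirt7 with 1 of the 30367 non-control probes each, and no Sirt1. A further 2 probes carried the name Sirtuin 1 in their description, under transcript identifiers, and their values are given apart from the 6.

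The rats were 8 weeks old when feeding began, and they received a semi-synthetic control diet or the BASE-diet for 3 or 14 months. The groups were named CD 3 (control diet, 3 months, 5 rats), BD 3 (BASE-diet, 3 months, 5 rats), CD 14 (control diet, 14 months, 6 rats) and BD 14 (BASE-diet, 14 months, 6 rats). By the labels, 6% of salmon fat took the place of lard in the BASE-diet, and 8% of a linden flower extract, 8% of pumpkin puree and 1% of probiotic bacteria were added. The paper's table of diets also lists more rapeseed oil in the BASE-diet than in the control diet, and less than 1% of probiotic. The additions were given together, so that their separate effects cannot be told apart, and the rats fed for 14 months were also older than those fed for 3 months. Each liver was hybridised on its own 2-colour array against the same pool of liver RNA from healthy rats of 10 weeks.

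Sirtuins remove acetyl and other acyl groups from lysines and consume NAD in doing so, which ties them to the energy state of the cell, to fasting and to ageing. Sirt1 is mainly nuclear and acts on histones and transcription factors of glucose and lipid metabolism. Sirt2 is mainly cytosolic, Sirt3, Sirt4 and Sirt5 are mitochondrial, Sirt6 sits on chromatin and Sirt7 in the nucleolus. In liver, the family is best known for its part in fatty acid oxidation, ketone and urea production and gluconeogenesis.

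Of the 6 sirtuins found by gene name, Sirt2, Sirt4 and Sirt7 had the widest spread between rats of a group. The sequences below show what was hybridised for these 3 and for Sirt3, the main mitochondrial deacetylase. They are the array probes of these genes, printed 5′ to 3′ in lower case, and no stretch of them is marked.
Sirt2: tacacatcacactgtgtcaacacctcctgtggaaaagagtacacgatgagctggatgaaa
Sirt3: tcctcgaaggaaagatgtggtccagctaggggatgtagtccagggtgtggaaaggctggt
Sirt4: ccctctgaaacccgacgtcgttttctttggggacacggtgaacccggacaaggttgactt
Sirt7: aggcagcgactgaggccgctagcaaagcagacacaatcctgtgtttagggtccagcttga
In the rat build rn4 given by the files, the Sirt2 probe lies at chr1:83890733-83890792 on the plus strand, the Sirt3 probe at chr1:201022668-201022727 on the minus strand and the Sirt4 probe at chr12:42398991-42399050 on the plus strand. The Sirt5 probe lies at chr17:27135611-27135670 on the minus strand, the Sirt6 probe at chr7:9560618-9560677 on the plus strand and the Sirt7 probe at chr10:110011971-110012030 on the minus strand. The exon that each probe reports was not determined here, because no genome annotation of this build was used.

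The values are log2 ratios of Cy5 to Cy3. By the labels, every array had the rat in Cy5 and the reference in Cy3. The methods text assigns Cy3 to control rats and Cy5 to rats on the BASE-diet, which differs, and the labels were followed, so that a positive value means more signal in the rat than in the reference. The arrays lay on 5 slides, scanned once each, and all 6 BD 14 arrays were on slide C together with 2 CD 14 arrays. The CD 3 arrays were spread over slides B (1 array), D (3) and E (1), the BD 3 arrays over slides A (3) and B (2), and the other CD 14 arrays over slides A (3) and E (1). Between 52.4% and 93.6% of the spots of an array were well above background in Cy5, and the lowest share belonged to CD 3 rat 4, whose median Cy5 signal of 21.8 was also the lowest. The liver label was borne out by albumin, transthyretin, transferrin and the other hepatocyte markers, 6 of 6 of which passed the background flag on each of the 22 arrays. Of the markers of other cells, 4 of 6 for leukocytes, 5 of 6 for stellate cells and fibroblasts, 3 of 3 for endothelial cells, 3 of 3 for red cells and 0 of 4 for bile duct cells were above background on every array. The mean log2 ratio of the 6 leukocyte markers ran from -1.74 to 0.08 in CD 3, from -1.33 to 0.00 in BD 3, from -0.70 to 0.57 in CD 14 and from -0.69 to 0.16 in BD 14, and its part in the sirtuin values was not tested. In whole liver, fewer cells of a type and less RNA per cell cannot be told apart.

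All 6 sirtuin probes entered the tests, and none was called in any comparison. With limma's F test over the 4 groups, 0 of the 6 passed an adjusted p of 0.05, where 0.0257% of the 19434 probes tested did, and 0 of 6 passed an unadjusted p of 0.05, where 10.5% of all probes did. For the BASE-diet against control diet, limma called 0 of 6 sirtuin probes at 3 months and 0 of 6 at 14 months, and 0% of all probes in each comparison. At an unadjusted p of 0.05 the sirtuin counts were again 0 of 6 at 3 months, against 7.11% of all probes, and 0 of 6 at 14 months, against 4.6%. For 14 against 3 months, 0 of 6 were called by limma on control diet and 0 of 6 on BASE-diet, as were 0% of all probes, and the unadjusted counts of 0 of 6 and 0 of 6 stood against 10.1% and 7.44%. For BD 14 against CD 3, limma called 0 of 6 where 0.314% of all probes were called, and 0 of 6 had an unadjusted p under 0.05 where 17.1% of all probes had. The 61 probes called by limma for BD 14 against CD 3 depended on the arrays and the setting, and the count ran from 0 with the slide as a block to 1411 without CD 3 rat 2. For the interaction of diet and time, limma called 0 of 6 and 0% of all probes, and the unadjusted count was 0 of 6 against 4.8%. The methods' F test followed by Tukey's HSD also called 0 sirtuin probes. The unadjusted counts of 0 did not hold in every setting. With the Cy5 channel alone, Sirt2 and Sirt7 had an unadjusted p under 0.05 for BD 3 against CD 3 (2 of 6, against 14.8% of all probes) and for BD 14 against CD 3 (2 of 6, against 20.5%), and Sirt7 for CD 14 against CD 3 (1 of 6, against 9.43%). For BD 14 against CD 14, Sirt2 and Sirt7 did so with array weights (2 of 6, against 11.1%) and with these groups fitted alone (2 of 6, against 10.1%), and Sirt2 with normexp (1 of 6, against 3.58%). Sirt7 did so for BD 14 against BD 3 with these groups fitted alone (1 of 6, against 14.6%). For BD 14 against CD 3, Sirt2 did so with normexp, median-centring, the strict filter, rat number as a block and an intensity trend. Each was 1 of 6, against 16.7% to 17.3%. With 1 array left out the unadjusted counts ran from 0 to 3, the highest being Sirt2, Sirt4 and Sirt7 for BD 14 against CD 3 without CD 3 rat 2, where 25.4% of all probes passed. Without CD 3 rats 2 and 4, Sirt2 and Sirt7 passed for BD 14 against CD 14 (2 of 6, against 8.68%). In that fit both also passed for BD 14 against CD 3 (2 of 6, against 16.8%). For BD 14 against BD 3, Sirt7 passed in it (1 of 6, against 11%).

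**Figure D1:**
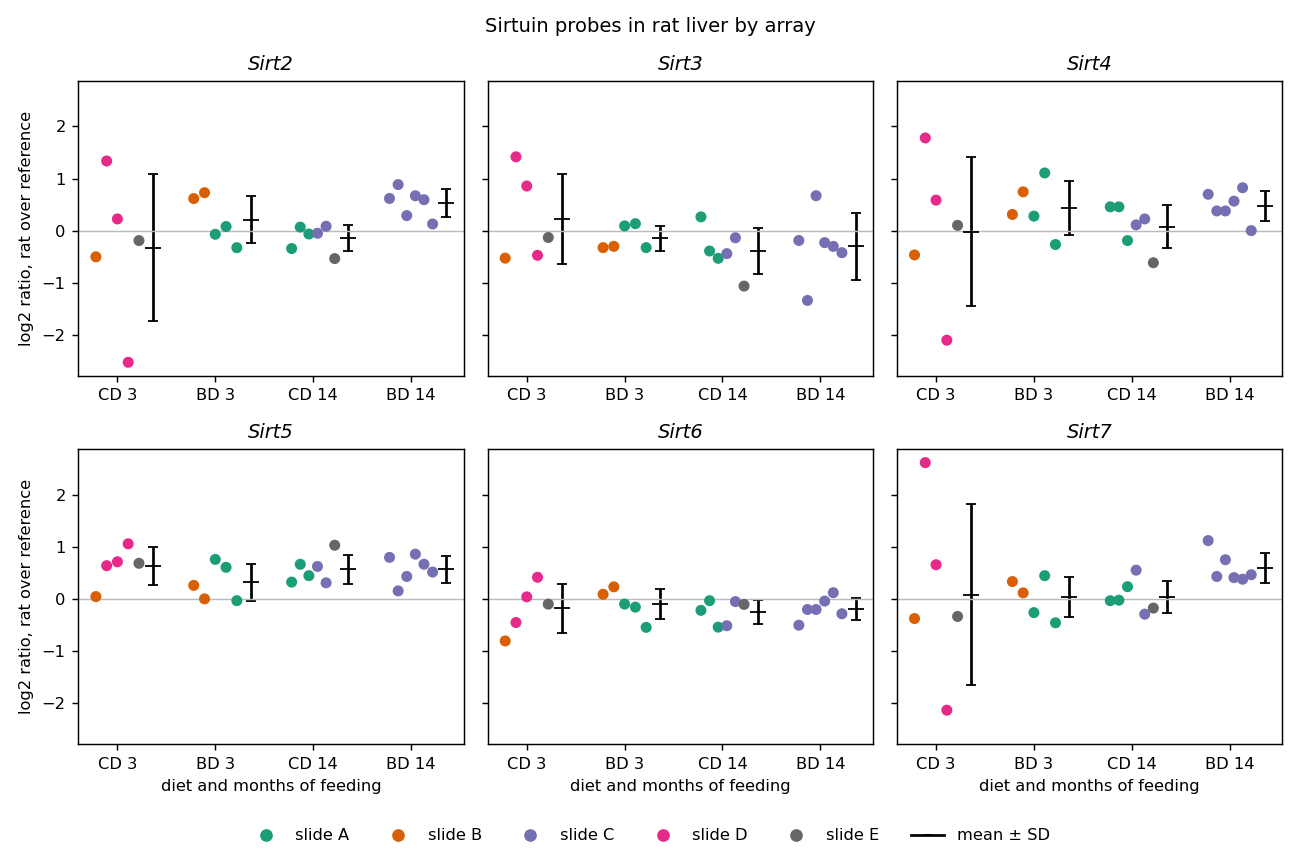
Log2 ratio of rat over common reference for the 6 sirtuin probes, each point an array coloured by slide, with the mean and SD of each group (n = 5 for the 3-month and n = 6 for the 14-month groups). For Sirt2, the 6 BD 14 points from 0.13 to 0.89 lie above the 6 CD 14 points from -0.53 to 0.09, and the CD 3 points of Sirt2, Sirt4 and Sirt7 spread over more than those of any other group.

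Sirt2 deacetylates tubulin and several metabolic enzymes in the cytosol. In CD 3 its log2 ratios were -0.50, 1.34, 0.23, -2.52 and -0.19 in rats 1 to 5, and in BD 3 they were 0.62, 0.73, -0.07, 0.08 and -0.32. After 14 months, the lowest, median and highest log2 ratios were -0.53, -0.05 and 0.09 in CD 14 and 0.13, 0.61 and 0.89 in BD 14. The 3-month groups overlapped widely, with CD 3 rat 2 above and CD 3 rat 4 below every BD 3 rat, while all 6 BD 14 rats lay above all 6 CD 14 rats. No other sirtuin showed groups without overlap in any of the 5 comparisons of groups, and 0.773% of all probes with a value on every array of both groups did so for BD 14 and CD 14 in either direction, 0.657% with BD 14 higher. In either direction the share of all probes was 0.701% for BD 3 and CD 3, 0.501% for CD 14 and CD 3, 2.26% for BD 14 and BD 3 and 1.44% for BD 14 and CD 3, with 0 of 6 sirtuins in each. The Sirt2 difference at 14 months was 0.67 on the log2 scale (SE 0.40, a 1.59-fold higher ratio in BD 14, 95% interval from -0.15 to 1.49), with an adjusted p of 0.952 in limma. The group means ± SD were -0.33 ± 1.41 in CD 3 (n = 5), -0.14 ± 0.25 in CD 14 (n = 6), 0.21 ± 0.45 in BD 3 (n = 5) and 0.53 ± 0.27 in BD 14 (n = 6), in rising order. Of the neighbours in this order, CD 3 and CD 14 as well as BD 3 and BD 14 were not called as different, and CD 14 and BD 3, which differ in both diet and time, were not compared.

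The Sirt2 difference at 14 months was followed through slides, channels and settings because its groups do not overlap. All BD 14 arrays lay on slide C, where the 2 CD 14 arrays had log2 ratios of -0.05 and 0.09, and the mean difference within that slide was 0.51. The lowest BD 14 value of 0.13 stood above both of these, which follows from the groups not overlapping and is no separate check. With limma on slide C alone the difference had SE 0.23 and an adjusted p of 0.452, and with the slide as a block over all arrays it had SE 0.61 and an adjusted p of 0.877. In the processed Cy5 signal, taken after the dye normalization but before division by the reference, Sirt2 ran from 181 to 415 with a median of 231 in CD 14 and from 158 to 276 with a median of 236 in BD 14, so the groups overlapped in this channel. The processed Cy3 signal of the reference at the same probe ran from 187 to 600 beside CD 14 livers and from 124 to 219 beside BD 14 livers. Taking the Cy5 channel alone after quantile normalization gave a log2 difference of 0.35 (SE 0.38, adjusted p = 0.859 in limma).

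**Figure D2:**
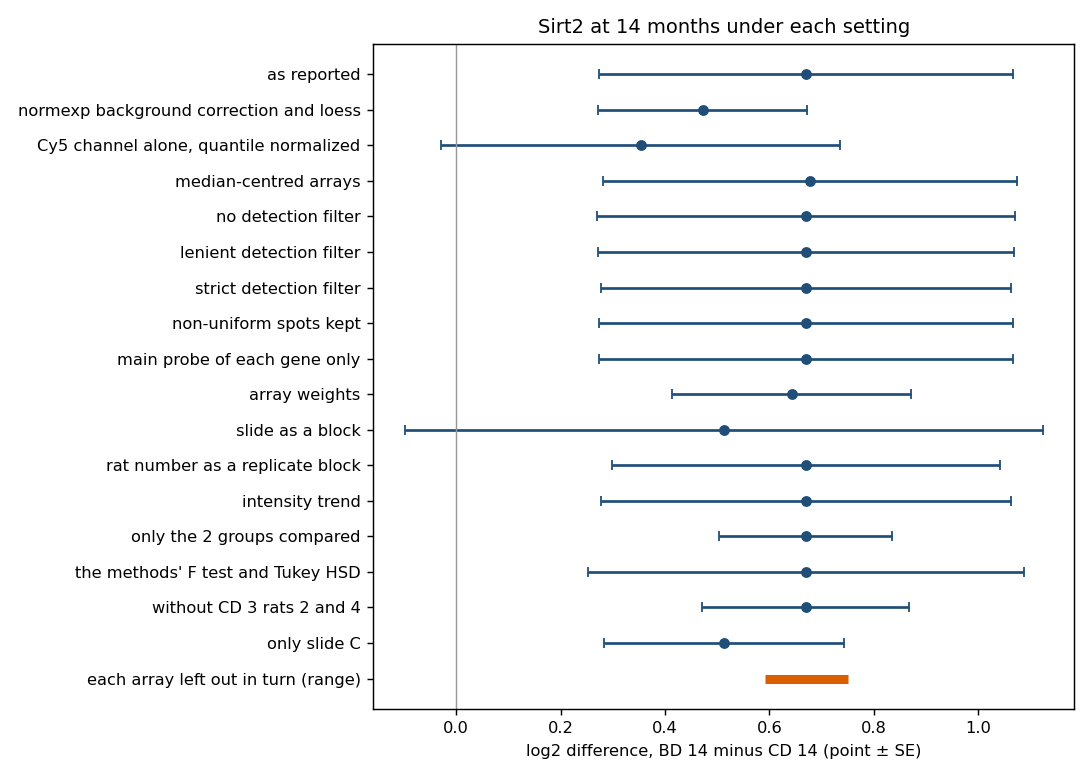
Log2 difference of Sirt2, BD 14 minus CD 14, as reported and under each alternative, as a point with its SE, and below it the range when each array was left out in turn. The difference stayed above 0 in all of them, between 0.35 and 0.68 for the alternatives and between 0.59 and 0.75 for the arrays left out.

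The spread of the CD 3 group set the size of the Sirt2 errors. Leaving CD 3 rats 2 and 4 out of the fit, a choice made after seeing the data, left the 14-month difference at 0.67 with an SE of 0.20 and an adjusted p of 0.301 in limma, and fitting the 2 groups at 14 months alone gave SE 0.17 and an adjusted p of 0.242. For BD 14 against CD 3, Sirt2 differed by 0.86 (SE 0.42, adjusted p = 0.295 in limma), the difference with the lowest unadjusted p of the 6 sirtuins in any comparison. Without CD 3 rat 2 this difference became 1.28 with an adjusted p of 0.0403, in a fit that called 7.26% of all probes for this comparison, and without CD 3 rat 4 it became 0.31. Without both rats it was 0.69 (adjusted p = 0.154), with normexp 0.56 (adjusted p = 0.182) and with the Cy5 channel alone 1.09 (adjusted p = 0.134). For BD 3 against CD 3, Sirt2 differed by 0.54, and by 1.28 with the Cy5 channel alone (adjusted p = 0.130). The 2 spots of the Sirt2 probe on the array of CD 3 rat 4 read -3.45 and -1.60, a gap of 1.85, against a median gap of 0.09 between the spots over the 22 arrays. The call for BD 14 against CD 3 thus appeared with 1 array left out and with no other.

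Sirt3 is the main deacetylase of the mitochondrial matrix and acts on enzymes of fatty acid oxidation and ketone production. Its log2 ratios were -0.52, 1.42, 0.86, -0.47 and -0.13 in CD 3 and -0.32, -0.30, 0.09, 0.14 and -0.32 in BD 3. The lowest, median and highest were -1.06, -0.41 and 0.27 in CD 14 and -1.33, -0.26 and 0.67 in BD 14. The highest values belonged to CD 3 rats 2 and 3, the lowest to BD 14 rat 2, and every pair of groups overlapped. The means ± SD were 0.23 ± 0.86 in CD 3 (n = 5), -0.14 ± 0.24 in BD 3 (n = 5), -0.30 ± 0.64 in BD 14 (n = 6) and -0.38 ± 0.44 in CD 14 (n = 6), and no neighbours in this order were called as different. Across the 5 comparisons of groups, the log2 differences of Sirt3 ran from -0.61 for CD 14 against CD 3 (95% interval from -1.33 to 0.10) to 0.08 for BD 14 against CD 14 (95% interval from -0.60 to 0.76). The former was -0.31 without CD 3 rat 2, -0.80 without CD 3 rat 1 and -0.05 with the Cy5 channel alone. Within slide C the difference for BD 14 against CD 14 was -0.01. The processed Cy5 signal of Sirt3 ran from 251 to 1144 and cleared the background on all 22 arrays.

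Sirt4 acts in mitochondria on glutamate dehydrogenase and on malonyl-CoA decarboxylase. Its log2 ratios were -0.46, 1.78, 0.59, -2.10 and 0.10 in CD 3 and 0.31, 0.75, 0.28, 1.11 and -0.26 in BD 3. The lowest, median and highest were -0.61, 0.17 and 0.46 in CD 14 and 0.00, 0.47 and 0.82 in BD 14. As for Sirt2, CD 3 rat 2 was the highest and CD 3 rat 4 the lowest of all rats, the latter on a spot not well above background, and the groups overlapped. The means ± SD were -0.02 ± 1.43 in CD 3 (n = 5), 0.08 ± 0.41 in CD 14 (n = 6), 0.44 ± 0.52 in BD 3 (n = 5) and 0.48 ± 0.29 in BD 14 (n = 6). On BASE-diet both means were above those of control diet, by 0.45 at 3 months (95% interval from -0.49 to 1.40) and by 0.40 at 14 months (95% interval from -0.47 to 1.27), and neither difference was called by limma. With normexp these were 0.16 and 0.14, and with the Cy5 channel alone 0.86 and 0.51. The difference at 3 months changed sign to -0.07 when CD 3 rat 4 was left out. The Sirt4 probe was dim, with processed Cy5 signals from 7.89 to 139, and was well above background on 21 of 22 arrays.

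Sirt5 removes succinyl, malonyl and glutaryl groups in mitochondria and acts on carbamoyl phosphate synthetase of the urea cycle. Its log2 ratios were 0.05, 0.64, 0.71, 1.06 and 0.68 in CD 3 and 0.26, 0.00, 0.76, 0.61 and -0.03 in BD 3. The lowest, median and highest were 0.31, 0.53 and 1.03 in CD 14 and 0.15, 0.59 and 0.86 in BD 14. Nearly all livers had more Sirt5 signal than the reference, with a single value below 0, in BD 3 rat 5. The means ± SD were 0.32 ± 0.35 in BD 3 (n = 5), 0.57 ± 0.27 in CD 14 (n = 6), 0.57 ± 0.26 in BD 14 (n = 6) and 0.63 ± 0.37 in CD 3 (n = 5). The largest of its 5 differences between groups in size was -0.31 for BD 3 against CD 3 (95% interval from -0.75 to 0.13), or -0.06 with the Cy5 channel alone, and at 14 months the diets differed by 0.00 (95% interval from -0.40 to 0.41). The 3-month difference was -0.45 without CD 3 rat 1 and -0.20 without CD 3 rat 4. The former passed an unadjusted p of 0.05 in limma, as did 12.2% of all probes, but had an adjusted p of 0.386. Sirt5 was bright on every array, with processed Cy5 signals from 1625 to 8546, and the gap between its 2 spots had a median of 0.03.

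Sirt6 is a chromatin enzyme known for restraining glycolytic and lipogenic genes. Its log2 ratios were -0.81, -0.45, 0.04, 0.42 and -0.10 in CD 3 and 0.09, 0.23, -0.10, -0.16 and -0.54 in BD 3. The lowest, median and highest were -0.54, -0.16 and -0.03 in CD 14 and -0.50, -0.20 and 0.12 in BD 14. All groups overlapped, and the 6 CD 14 values were all slightly below the reference. The means ± SD were -0.24 ± 0.23 in CD 14 (n = 6), -0.19 ± 0.21 in BD 14 (n = 6), -0.18 ± 0.47 in CD 3 (n = 5) and -0.10 ± 0.29 in BD 3 (n = 5). The 5 differences between groups lay between -0.09 and 0.08 on the log2 scale, and the 95% interval of the diet difference ran from -0.35 to 0.52 at 3 months and from -0.34 to 0.46 at 14 months. With the slide as a block, Sirt6 differed by 0.62 (SE 0.31, adjusted p = 0.473 in limma) for BD 3 against CD 3, 0.46 for CD 14 against CD 3, 0.56 for BD 14 against CD 3 and 0.10 for BD 14 against CD 14, with an interaction of -0.52. Within slide B, which held 2 BD 3 arrays and 1 CD 3 array, the 3-month difference was 0.97. That CD 3 array was of rat 1, which had the lowest Sirt6 ratio of the 22 arrays, -0.81. It also had the highest share of non-uniform spots of all arrays, 4.44%, and the part of this in the Sirt6 values was not tested. The processed Cy5 signal of Sirt6 ran from 146 to 847 and cleared the background on all 22 arrays.

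Sirt7 is a nucleolar sirtuin linked to ribosomal RNA transcription. Its log2 ratios were -0.38, 2.61, 0.66, -2.13 and -0.34 in CD 3 and 0.33, 0.12, -0.26, 0.45 and -0.46 in BD 3. The lowest, median and highest were -0.29, -0.03 and 0.55 in CD 14 and 0.38, 0.45 and 1.12 in BD 14. CD 3 rat 2 was again the highest and CD 3 rat 4, whose spot was not well above background, the lowest of the 22 rats, and at 14 months a single CD 14 rat, rat 4, reached into the range of BD 14. The means ± SD were 0.04 ± 0.39 in BD 3 (n = 5), 0.04 ± 0.31 in CD 14 (n = 6), 0.09 ± 1.73 in CD 3 (n = 5) and 0.59 ± 0.29 in BD 14 (n = 6). The diet difference at 14 months was 0.55 (95% interval from -0.43 to 1.53), was 0.46 within slide C, 0.31 with normexp and 0.22 with the Cy5 channel alone, and was not called by limma. For BD 14 against BD 3, Sirt7 differed by 0.56 (SE 0.49, adjusted p = 0.805 in limma), and by 0.18 with the Cy5 channel alone. The Cy5 channel alone moved Sirt7 the other way against CD 3, from -0.05 to 0.90 for BD 3 (adjusted p = 0.246), from -0.04 to 0.87 for CD 14 (adjusted p = 0.451) and from 0.51 to 1.08 for BD 14 (adjusted p = 0.0933). The Sirt7 probe is a single spot per array, so no gap between spots can be given, and its processed Cy5 signal of 12.5 to 266 was well above background on 21 of 22 arrays.

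**Figure D3:**
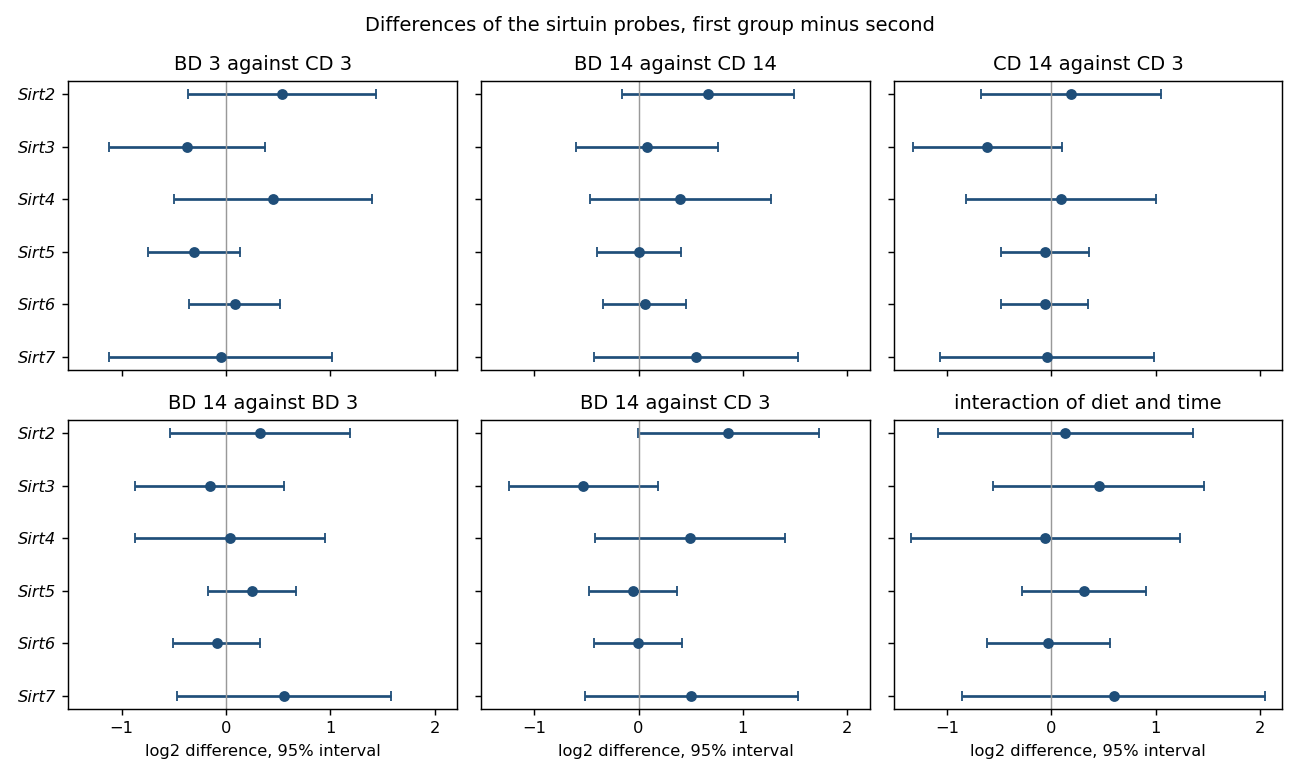
Log2 differences of the 6 sirtuin probes in limma, first group minus second, with 95% intervals, for the 5 comparisons of groups and for the interaction of diet and time. All intervals include 0, and those of Sirt5 and Sirt6 are the narrowest. The BD 14 against CD 14 points all lie at or above 0, from 0.00 for Sirt5 to 0.67 for Sirt2, but those of Sirt3 and Sirt6 turn negative with the Cy5 channel alone.

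At 14 months the log2 differences of all 6 sirtuins were above 0 in the ratios, with a median of 0.24, while with the Cy5 channel alone Sirt3 fell to -0.21 and Sirt6 to -0.07 and with the slide as a block Sirt3 fell to -0.01. Over all probes tested the median difference was 0.05 and 56.3% of probes were higher in BD 14. Whether the sirtuins differed from the rest of the array in this was not tested. The values of Sirt3, Sirt5 and Sirt6 were near to 0, and leaving out a single array turned their sign: CD 14 rat 6 or BD 14 rat 3 for Sirt3, CD 14 rat 3 or BD 14 rat 5 for Sirt6, and any of CD 14 rats 1, 3 and 5 and BD 14 rats 1, 4 and 5 for Sirt5. Over these fits the difference ran from -0.11 to 0.29 for Sirt3, from -0.05 to 0.10 for Sirt5 and from -0.0030 to 0.12 for Sirt6. At 3 months 3 sirtuins were higher and 3 lower on BASE-diet, with a median of 0.02 against 0.03 over all probes. This split was 4 higher and 2 lower with the Cy5 channel alone, where 3 of the 6 signs changed, and with normexp, where 1 did, and 5 higher and 1 lower with the slide as a block, where Sirt5 went from -0.31 to 0.17. The interaction, which sets the diet difference at 14 months against that at 3 months, ran from -0.05 for Sirt4 to 0.60 for Sirt7, with an adjusted p of 0.999 for each. With the Cy5 channel alone 3 of the 6 interactions changed sign, that of Sirt7 to -0.68, and with the slide as a block 2 did. The interaction of Sirt7 was -0.03 without CD 3 rat 2 and 1.15 without CD 3 rat 4 (adjusted p = 0.624), and that of Sirt4 changed sign in 7 of the 22 fits that left out 1 array.

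Sirt1 deacetylates histones, Foxo proteins and the coactivator PGC-1 alpha, and was represented by the 2 probes named only in the description. The brighter of them lies at chr20:25675303-25675362 and the other at chr20:25668211-25668270, both on the minus strand of rn4. The brighter probe had log2 ratios of -1.19, 0.20, 1.20, 1.56 and 0.71 in CD 3 and -0.62, -0.40, 0.27, 0.12 and -0.32 in BD 3. Its lowest, median and highest were -0.76, 0.08 and 0.38 in CD 14 and -0.49, -0.22 and 1.35 in BD 14. The groups overlapped, and CD 3 rats 1 and 4 were the lowest and the highest of all. The other probe read 0.27, 0.60, 1.01, -1.12 and 1.64 in CD 3 and -0.76, -0.51, 0.20, 0.58 and -0.60 in BD 3. In CD 14 its lowest, median and highest were -1.06, -0.11 and 0.34, and in BD 14 they were -0.16, 0.46 and 1.91. The dimmer probe was well above background on 20 of 22 arrays. On CD 3 rat 4, the highest rat on the brighter probe, its processed Cy5 signal of 6.12 was not well above background, so that its low value there is not a measured level, and the same flag was missing on CD 14 rat 6. For the dimmer probe, the diet difference was -0.70 at 3 months and 0.74 at 14 months, and the interaction of 1.44 (SE 0.60, 95% interval from 0.20 to 2.68) passed an unadjusted p of 0.05 in limma but had an adjusted p of 0.998. These values include the array of CD 3 rat 4, and without it the difference at 3 months was -1.10 and the interaction 1.84. Without CD 3 rat 5 they were -0.41 and 1.15, and without BD 14 rat 2 the difference at 14 months was 0.47. The high ratios of these latter rats, 1.64 and 1.91, stood on processed Cy3 signals of 9.09 and 8.03. The interaction no longer passed an unadjusted p of 0.05 with the Cy5 channel alone, with normexp, with the slide as a block or without CD 3 rat 5, and with the Cy5 channel alone the difference at 3 months turned to 0.06. The brighter probe gave an interaction of 0.77 (SE 0.56, adjusted p = 0.999), which turned negative with the Cy5 channel alone (-0.08) and with the slide as a block (-0.20). Neither Sirt1 probe was called in any comparison, and over the alternative settings the interaction of the dimmer probe ran from 0.28 to 1.93. The highest was without CD 3 rats 2 and 4, a choice made after seeing the data. There it passed an unadjusted p of 0.05, as did 5.27% of all probes, with an adjusted p of 0.877 in limma. The diet differences in that fit were -1.19 at 3 months and 0.74 at 14 months (adjusted p = 0.768 and 0.561 in limma).

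**Figure D4:**
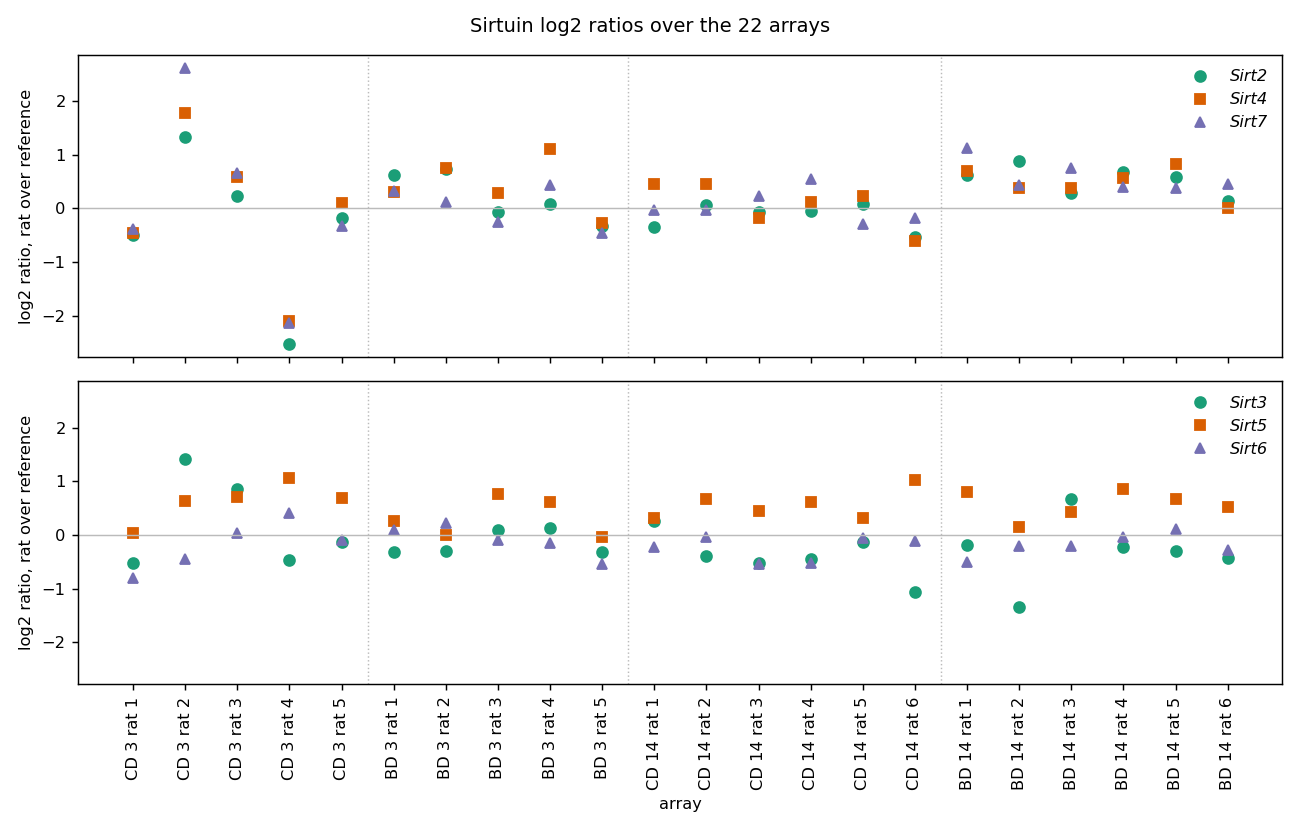
Log2 ratio of rat over common reference on each of the 22 arrays, Sirt2, Sirt4 and Sirt7 above and Sirt3, Sirt5 and Sirt6 below, with dotted lines between the groups. Sirt2, Sirt4 and Sirt7 are highest in CD 3 rat 2, at 1.34, 1.78 and 2.61, and lowest in CD 3 rat 4, at -2.52, -2.10 and -2.13 (not well above background there for Sirt4 and Sirt7), while Sirt5 and Sirt6 are highest in CD 3 rat 4, at 1.06 and 0.42.

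Sirt2, Sirt4 and Sirt7 were correlated over the 22 arrays, as were many other genes with each of them. As a description, Pearson's r was 0.895 for Sirt2 and Sirt4 (Spearman's rho 0.740), 0.853 for Sirt2 and Sirt7 (rho 0.723) and 0.851 for Sirt4 and Sirt7 (rho 0.644). Without the arrays of CD 3 rats 2 and 4, which lay farthest from the median for each of these, r was 0.673, 0.635 and 0.542. Of the 16468 other genes compared, Sirt4 was the 198th and Sirt7 the 535th closest to Sirt2, and Sirt2 was the 9th and Sirt7 the 61st closest to Sirt4. Sirt4 and Sirt7 were not well above background on the array of CD 3 rat 4, where their processed Cy5 signals of 7.89 and 12.5 were their lowest. The points share the reference RNA, the slide and the signal level of the array. Among the remaining pairs of Sirt2 to Sirt7, r ran from -0.376 for Sirt6 and Sirt7 to 0.534 for Sirt3 and Sirt4.

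The sirtuins differed in how much they varied between rats of a group. The residual SD within groups was 0.31 for both Sirt5 and Sirt6, below which lay 16.3% and 16.0% of the probes tested. It was 0.87 for Sirt7, 0.76 for Sirt4 and 0.72 for Sirt2, above 87.5%, 79.9% and 76.0% of the probes, and 0.59 for Sirt3, above 58.6%. The gap between the 2 spots of a probe on the same array had a median of 0.21 for Sirt4, 0.09 for Sirt2, 0.08 for Sirt3, 0.06 for Sirt6 and 0.03 for Sirt5, and over all tested probes with 2 spots the median was 0.12.

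The genes whose log2 ratios followed each sirtuin most closely over the 22 arrays were named by Pearson's r, without a test. For Sirt2 these were Maea (r = 0.967), a ubiquitin ligase subunit, Phyhd1 (0.958) and Atp5sl (0.957), and without CD 3 rats 2 and 4 the values were 0.879, 0.896 and 0.963. Sirt3 was followed by Akap8l (0.893), Miip (0.846) and an unnamed probe, A_64_P019594 (0.818). Sirt4 was followed by Pdcd6ip (0.940), Clk3 (0.934) and Hp1bp3 (0.919), and Sirt5 by Ppapdc2 (0.831), Slc45a4 (0.823) and Olr386 (0.816). Sirt6 was followed by the unnamed probe A_64_P127976 (0.860), LOC691485 (0.853) and LOC361646 (0.840), and Sirt7 by Fbxo6 (0.953), Ubac1 (0.945) and the unnamed probe A_44_P468573 (0.941). The brighter Sirt1 probe was followed by Utp15 (0.872), Zcchc2 (0.864) and Elk4 (0.861). Over 16469 genes the highest r with another gene had a median of 0.865, with 0.737 and 0.981 as the 5th and 95th percentiles, and the best match of each sirtuin lay inside that range. Without the 2 arrays farthest from the median of each gene, r fell to between 0.749 and 0.815 for the matches of Sirt4, between 0.761 and 0.835 for Sirt7, between 0.656 and 0.814 for Sirt3, between 0.730 and 0.775 for Sirt6 and between 0.755 and 0.857 for Sirt1, and it was between 0.789 and 0.825 for Sirt5. For Sirt4 and Sirt7 these arrays were again CD 3 rats 2 and 4.

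The genes around the sirtuins were taken as 6 lists, of which 70 genes were tested. None of the 70 was called by limma in any of the 6 comparisons, and at an unadjusted p of 0.05 the counts were 3 for BD 3 against CD 3 (4.29% of the 70), 1 for BD 14 against CD 14 (1.43%), 7 for CD 14 against CD 3 (10.0%), 3 for BD 14 against BD 3 (4.29%), 9 for BD 14 against CD 3 (12.9%) and 4 for the interaction (5.71%). Each share but that of the interaction was below that of all probes in the same comparison, given above, and the comparisons with CD 3 share its 5 arrays.

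Genes that make NAD supply the cosubstrate of the sirtuins, and 0 of 14 tested were called in any comparison. At 14 months the median log2 difference between the diets was 0.12, with 10 of 14 higher in BD 14, against 0.05 and 56.3% of probes higher over all probes. At 3 months 6 of 14 were higher on BASE-diet with a median of -0.05, against 0.03 and 53.6% over all probes. Nmnat3, the mitochondrial nicotinamide mononucleotide adenylyltransferase, had log2 differences of -0.77 for BD 14 against BD 3 (SE 0.29, adjusted p = 0.559 in limma) and -0.94 for BD 14 against CD 3 (adjusted p = 0.118). Tdo2, which opens the breakdown of tryptophan towards NAD, differed by 0.59 for BD 14 against CD 3. Kynu and Nadsyn1, of the same route, differed by -0.53 and -0.51 for CD 14 against CD 3.

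Enzymes that spend or convert NAD, competitors of the sirtuins for the cosubstrate among them, had 0 of 12 called, with 5 of 12 higher on BASE-diet at 3 months and 8 of 12 at 14 months. Tnks2, a tankyrase that builds poly-ADP-ribose, had log2 differences against CD 3 of 1.62 for BD 3 (SE 0.44, adjusted p = 0.400), 1.46 for CD 14 (SE 0.42, adjusted p = 0.238) and 1.51 for BD 14 (SE 0.42, adjusted p = 0.101). Without CD 3 rat 5 these adjusted p-values were 0.0325, 0.0310 and 0.0192, and the differences 1.99, 1.82 and 1.88. Of all probes, 0.479%, 1.05% and 2.08% were called in these comparisons without that rat, against 0%, 0% and 0.314% with it. The interaction of Tnks2 was -1.57 (adjusted p = 0.993). All these Tnks2 values are of its brightest probe, and those of its other probe, A_44_P112149, are not given here. Parp3, another ADP-ribosyl transferase, differed by 0.65 and Nudt12, which hydrolyses NADH, by -0.54 for BD 14 against CD 3. Nadk, the kinase that turns NAD into NADP, had a log2 difference of 0.29 between the diets at 14 months, the 1 listed gene with an unadjusted p under 0.05 there (adjusted p = 0.952), -0.39 for CD 14 against CD 3 and an interaction of 0.46.

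The zinc-dependent deacetylases remove acetyl groups without NAD, and 0 of 9 were called. At 3 months 8 of 9 were higher on BASE-diet with a median of 0.25, where 53.6% of all probes were higher, and at 14 months 8 of 9 with a median of 0.09, where 56.3% of all probes were. Hdac6, which shares tubulin as a substrate with Sirt2, differed by 0.61 for BD 3 and 0.69 for BD 14 against CD 3. Hdac7 and Hdac8 differed by 0.41 and 0.84 for BD 14 against CD 3, and Hdac10 by -0.49 for CD 14 against CD 3. Of the lysine acetyltransferases, which work against the deacetylases, 0 of 8 were called, with 4 of 8 higher on BASE-diet at 3 months (median -0.09) and 2 of 8 at 14 months (median -0.01), and Crebbp differed by -0.88 for BD 14 against BD 3.

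Among the regulators and partners of Sirt1, 0 of 15 were called, with 10 of 15 higher on BASE-diet at 3 months (median 0.17) and 6 of 15 at 14 months (median -0.03). Foxo3, a transcription factor deacetylated by Sirt1, had log2 differences of -0.89 for BD 3 against CD 3 (SE 0.34, adjusted p = 0.573 in limma) and 0.72 for BD 14 against BD 3, and an interaction of 1.16 (SE 0.47, adjusted p = 0.993). Hic1, a repressor of the Sirt1 gene, differed by 0.79 for CD 14 against CD 3. Of the mitochondrial enzymes known as substrates or partners of Sirt3, Sirt4 or Sirt5, 0 of 12 were called. At 3 months 5 of 12 were higher on BASE-diet with a median of -0.09, and at 14 months 10 of 12 with a median of 0.36, beside the shares of all probes given above. Acadvl, the dehydrogenase of very long chain fatty acids, differed by -0.54 for CD 14 against CD 3 with an interaction of 0.69 (adjusted p = 0.999), and Otc of the urea cycle by 0.90 for BD 14 against CD 3 (adjusted p = 0.202).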

How the data were processed

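Liver RNA of 22 rats was measured on 2-colour Agilent arrays. The authors extracted the deposited intensity values with Agilent Feature Extraction (version 10.7.3.1 per the submitters' processing notes, 10.10.1.1 per the file headers), which subtracted background and normalized the dyes by Lowess. The deposited log10 ratio of Cy5 to Cy3 was multiplied to log2 here and averaged over the spots of a probe, without control and non-uniform spots. Tests took the 19434 probes for which 1 group or more had, on each of its arrays, a share of 0.5 or more of the spots well above background in Cy5. Of these, 698 lacked a value on some array, which the fit left out. Groups were fitted with limma 3.58.1 in R 4.3.3 (4 group means, eBayes, prior degrees of freedom 3.37), with Benjamini-Hochberg adjustment over all probes tested and a threshold of 0.05. Python 3.11.15, numpy 2.4.6, pandas 2.3.3 and matplotlib 3.10.9 served for loading and pictures. The fit was tested on simulated data with 200 changed probes.

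Members, lists and tests were chosen with earlier results of these data known. Every sirtuin is named, and the 3 genes most like each sirtuin are named, as are listed genes with an unadjusted p under 0.05. Each sirtuin difference with an unadjusted p under 0.05 in the fit as reported, or without overlap, is given in full. The main probe of a gene is the brightest. On 2 arrays an earlier annotation renamed up to 418 spots, with the same 6 sirtuin probes. Alternatives were normexp with an offset of 50 and loess, Cy5 alone, median-centring, 3 other filters, non-uniform spots kept, 1 probe a gene, array weights, slide or rat number as a block, an intensity trend, only the groups compared, the methods' test and each array left out. The authors' table of log2 values of selected entries was not used, since it holds no sirtuin probe. Labels say that the arrays are separate rats. The number of arrays limits the precision.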

Additional observations from a re-analysis of the deposited data

How the results depend on the processing

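The sirtuin counts were 0 in all alternatives, and 0 in each fit that left out 1 array but for BD 14 against CD 3, which ran from 0 to 1 (Sirt2 without CD 3 rat 2, adjusted p = 0.0403). The counts of listed genes ran from 0 to 1 for BD 3 against CD 3 and for CD 14 against CD 3 (Tnks2 without CD 3 rat 5) and from 0 to 5 for BD 14 against CD 3 (Parp2, Parp3, Tnks2, Hdac6 and Rela without CD 3 rat 2, Tnks2 without CD 3 rat 5) with 1 array left out, and the Cy5 channel alone gave 1 for BD 14 against CD 3 (Tnks, adjusted p = 0.0266). Without CD 3 rat 2, the 5 genes were 7.14% of the 70 listed where 7.26% of all probes were called, and the Tnks call, 1.43% of the 70, stood against 2.64%. Over all probes, 61 were called as reported for BD 14 against CD 3, against 0 with the slide as a block or the 2 groups alone, 3 with array weights and 513 with the Cy5 channel alone, and from 3 (without CD 3 rat 4) to 1411 (without CD 3 rat 2) with 1 array left out. The comparisons with 0 calls as reported reached 205 for BD 3 against CD 3 with the Cy5 channel alone, 205 for CD 14 against CD 3 without CD 3 rat 5, 99 for BD 14 against BD 3 and 5 for BD 14 against CD 14 with array weights, and 0 for the interaction. The cause was not tested. With the rat number as a replicate block the sirtuin counts stayed at 0. The Sirt2 difference at 14 months was then 0.67 (SE 0.37, adjusted p = 0.949 in limma). Of the 22 arrays, 5 correlated best with an array of their own number in another group. That count cannot decide whether the numbers pair the rats, since some such matches arise without pairing. Without CD 3 rats 2 and 4, an alternative chosen after seeing the data, the counts were also 0. The interaction has no value with 2 groups only, on slide C alone or after Tukey's HSD, and the strict filter leaves out the dimmer Sirt1 probe. For the diet at 14 months, the 95% intervals of Sirt2, Sirt4 and Sirt7 reach past 1 on the log2 scale as reported. Without CD 3 rats 2 and 4, their SEs were 0.20, 0.24 and 0.22 and their adjusted p-values 0.301, 0.675 and 0.463.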
